A study of Mus musculus with 12 samples.

Results

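PP242, a small molecule that blocks the mTOR kinase by taking the place of ATP, was compared with its vehicle in activated central Treg (cTreg) cells across 22180 genes. The cells were CD4+ T cells of mice of the C57BL/6 background in which a Foxp3-YFP transgene marks Treg cells, sorted from spleen and peripheral lymph nodes as YFP+ CD62Lhi CD44lo. They were stimulated for 20 h with antibodies to CD3 and CD28 and recombinant IL-2, with DMSO on 3 arrays and with 500 nM PP242 on 3 arrays, which are 6 of the 12 arrays of the series. The other 6 arrays hold 3 samples of unstimulated cTreg cells (0 h, also labelled as treated with DMSO) and 3 activated with 50 nM Torin 1, a second inhibitor of the mTOR kinase. Since the Torin 1 dose differs and its comparison shares the DMSO arrays, its levels are given only side by side. The methods describe young mice of both sexes in general and call the replicates biological triplicates. The age and sex behind each sample, and whether each replicate was a separate animal, were not given in the sources used here, so the p values measure the spread between these samples.

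mTOR is a kinase that joins signals from the T cell receptor, CD28, IL-2 and nutrients to cell growth. It works in 2 complexes, mTORC1, defined by the subunit Raptor, which drives protein, nucleotide and lipid synthesis and holds back autophagy, and mTORC2, defined by Rictor, which activates AKT and SGK1 and through AKT restrains FOXO transcription factors. In Treg cells, the Foxp3+ lymphocytes that suppress immune responses, mTOR is engaged when resting central cells are activated and turn into effector cells.

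Each value is a log2 level after robust multichip averaging (RMA), and each change is the mean of the 3 PP242 arrays minus the mean of the 3 DMSO arrays with its standard error (SE) from a limma fit of all 12 arrays. Calls were made where the p value, adjusted by Benjamini-Hochberg across the 22180 genes, was under 0.05. RMA values carry no detection call, so the median level of the clusters with no gene symbol, 4.85, served as the level of a dim gene. Where a group mean lay under it, a fold is given as "at least". The arrays measure bulk RNA of sorted cells, in which fewer cells of a type and less RNA per cell cannot be told apart. The correlation between arrays lay between 0.9786 and 0.9826 within PP242, between 0.9792 and 0.982 within DMSO and between 0.9675 and 0.9725 across the groups. Of 8 T cell markers, all above the dim level, 1 (*Foxp3*) was called higher and 0 lower, with a median change of 0.07. Their summed linear level was higher on every PP242 array (14722 to 14865) than on every DMSO array (13676 to 14416). Of the markers of other cell types, 1 of 9 of B cells was called lower, 1 of 15 of myeloid and dendritic cells higher, 1 of 11 of NK and CD8 T cells lower, 2 of 7 of platelets higher and 0 of 3 of erythroid cells. The summed linear level of the myeloid list was 420 to 513 with DMSO and 513 to 563 with PP242, that of the platelet list 294 to 310 and 349 to 397, and that of the NK and CD8 list 677 to 769 and 455 to 495. The summed level of the B cell list was 231 to 272 with DMSO and 219 to 228 with PP242. The mean of 10 myeloid, 3 platelet, 7 NK and CD8 and 5 B cell markers lay under the dim level with DMSO. The part of such cells in the results below was not tested.

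With PP242, 2057 genes were called lower (9.27% of the genes tested) and 1636 called higher (7.38%), and the median change over all genes was 0.01. The falls were larger than the rises. The largest were of *Xcl1*, the chemokine lymphotactin (-3.22, SE 0.38), and the transcription factor *Irf8* (-3.20, SE 0.19, or -2.08 with the median of its clusters), and the largest rise was of *Il7r*, the IL-7 receptor (1.95, SE 0.15). Among the called genes, 266 fell and 84 rose by 2-fold or more, and 20 fell and 0 rose by 4-fold or more. Of all genes, 15.3% had every PP242 array below every DMSO array, and 15% had every one above. Such a lack of overlap held for 2027 of the 2057 genes called lower and 1601 of the 1636 called higher. It was also a condition for naming the 25 largest rises and falls, so it adds little to a call. The median change was -0.61 over the genes called lower and 0.51 over those called higher, against a median SE of 0.128. Calls depended on the level. Among the 5545 genes with the lowest means 1.55% were called lower and 1.06% higher, and among the 5545 with the highest 21.7% and 18.3%. When each array was centred on its median, the split moved to 2401 genes lower and 1217 higher, or 66.4% lower in place of 55.7%.

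**Figure D1:**
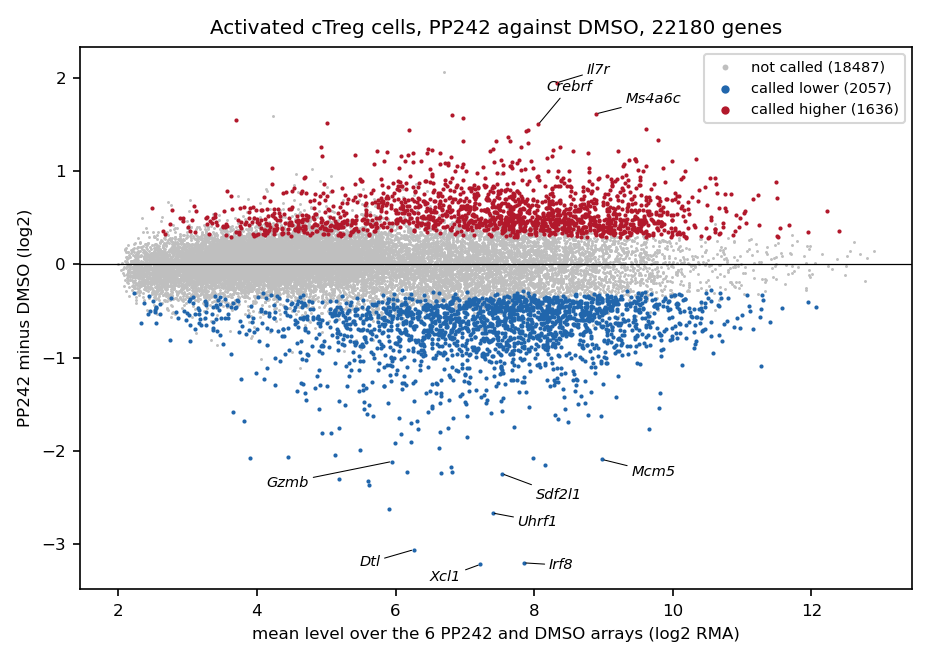
Change with PP242 against DMSO (log2, vertical axis) by mean level over the 6 arrays (log2 RMA, horizontal axis), 1 point for each of 22180 genes, with the 2057 called lower in blue, the 1636 called higher in red and the rest in grey. The falls reach below -3, while the largest called rise is 1.95.

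Across 52 gene lists of pathways, complexes and cell types, 38 held more genes called lower and 12 more called higher. The lists with the largest share of lower calls were ribosome biogenesis (56 of 66), aminoacyl-tRNA synthetases (16 of 19), cytosolic chaperones (23 of 28), DNA replication (43 of 53), the mitochondrial ribosome (51 of 70) and the proteasome (31 of 44). The lists with the largest share of higher calls were the GIMAP family (7 of 8) and genes of quiescence and lymph node homing (20 of 34). These shares compare with 9.27% lower and 7.38% higher over all genes. Among the 5545 genes with the highest means they compare with 21.7% lower and 18.3% higher, since calls depended on the level.

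**Figure D2:**
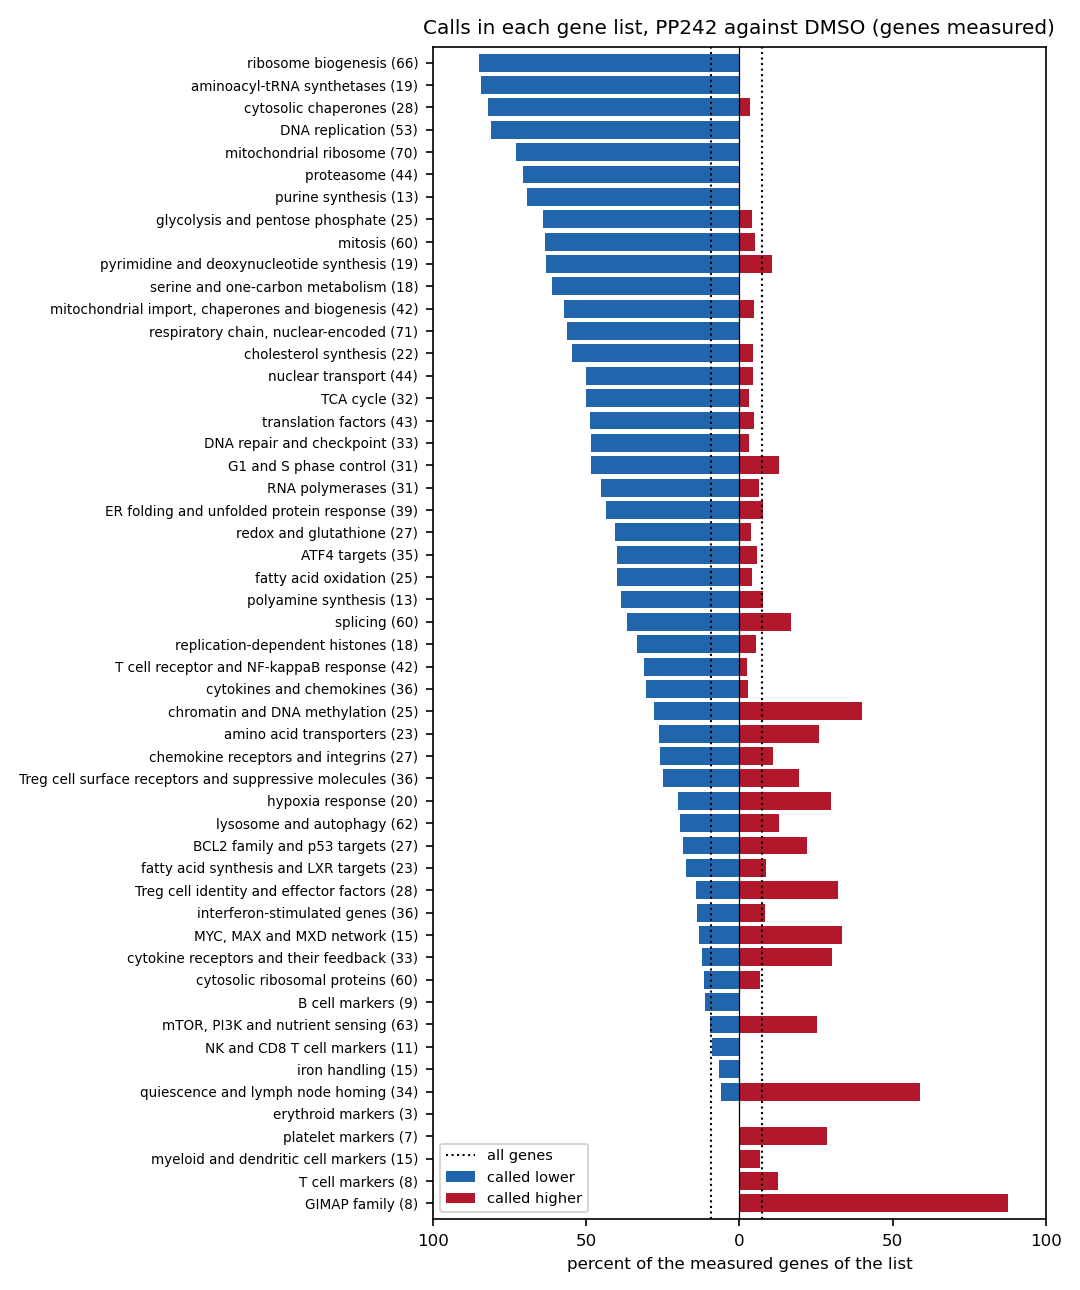
Percent of the measured genes of each list called lower (blue, left) or higher (red, right) with PP242, with the number of genes measured in brackets; the dotted lines are the shares of all genes, 9.27% and 7.38%. Biosynthetic and cell cycle lists lie far to the left, and the GIMAP and quiescence lists to the right.

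The genes of DNA replication fell together. Of 53 measured members, 43 were called lower and 0 higher, with a median change of -0.89 on the log2 scale. *Dtl*, which directs a ubiquitin ligase to proteins on replicating DNA, read 7.66, 7.96 and 7.76 with DMSO and 4.83, 4.67 and 4.70 with PP242. The PP242 arrays lay around the mean of unstimulated cells, 4.78, and the fall of *Dtl* was at least 7.69-fold (log2 change -3.06, SE 0.15, adjusted p = 9.1e-08). *Mcm3*, a subunit of the MCM helicase that unwinds DNA at the replication fork, read 9.32, 9.23 and 9.14 with DMSO and 7.0, 7.0 and 7.24 with PP242, a 4.44-fold fall (-2.15, SE 0.12, adjusted p = 1.64e-07). *Mcm5*, of the same helicase, read 10.03, 10.10 and 9.95 with DMSO and 7.70, 8.13 and 7.96 with PP242 (-2.09, SE 0.12, adjusted p = 1.68e-07). The helicase genes lay at 6.79 (*Mcm3*) and 7.71 (*Mcm5*) before stimulation, a little below their levels with PP242. *Orc1*, of the complex that marks replication origins, read 5.44, 5.42 and 5.43 with DMSO and 3.94, 4.17 and 3.82 with PP242 (at least 1.49-fold lower, log2 change -1.45, SE 0.11, adjusted p = 1.87e-06). *Orc1* and the fork helicase factor *Cdc45* (-1.30, SE 0.12, adjusted p = 9.67e-06) were chosen after their values were seen.

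The promoters of the replication genes are shown because many of them share a short element. The site bound by E2F factors, which switch on genes for S phase, was searched on both strands as TTTGGCGC or TTTCGCGC in the window from 250 bases before to 50 after each start. It lay in 11 of the 35 replication promoters with 1 annotated start (31.4%) and in 0.809% of all 22862 such promoters in RefSeq (build GRCm38.p6). Among the 14276 measured genes with such a promoter it lay in 1.09%, in 3.09% of those called lower and in 1.29% of those called higher. The median GC content was 63% in the replication promoters and 56% over the measured genes. Of the 11 genes, 10 were called lower, namely *Dtl*, *Mcm3*, *Mcm5*, *Orc1*, *Pola1*, *Rfc3*, *Mcm6*, *Cdt1*, *Mcm8* and *Clspn*, and *Pole2* did not pass the test (-0.49). They are named because their promoters hold the letters. The promoters of 4 of them follow, 5′ to 3′ along the gene, with the E2F letters in capitals.
Dtl, chr1:191575495-191575794, minus strand: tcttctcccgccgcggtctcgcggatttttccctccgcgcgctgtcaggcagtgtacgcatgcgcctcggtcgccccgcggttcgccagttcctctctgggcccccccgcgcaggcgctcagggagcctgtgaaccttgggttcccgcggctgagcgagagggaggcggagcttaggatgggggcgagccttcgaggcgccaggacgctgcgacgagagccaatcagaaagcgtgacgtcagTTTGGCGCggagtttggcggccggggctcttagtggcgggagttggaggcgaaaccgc
Mcm3, chr1:20820263-20820562, minus strand: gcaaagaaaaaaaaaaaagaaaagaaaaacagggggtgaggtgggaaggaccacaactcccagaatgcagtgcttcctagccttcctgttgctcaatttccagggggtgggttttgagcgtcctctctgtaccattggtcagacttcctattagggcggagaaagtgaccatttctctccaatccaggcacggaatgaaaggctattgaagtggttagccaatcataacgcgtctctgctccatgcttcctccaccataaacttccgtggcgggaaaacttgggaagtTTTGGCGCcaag
Mcm5, chr8:75109259-75109558, plus strand: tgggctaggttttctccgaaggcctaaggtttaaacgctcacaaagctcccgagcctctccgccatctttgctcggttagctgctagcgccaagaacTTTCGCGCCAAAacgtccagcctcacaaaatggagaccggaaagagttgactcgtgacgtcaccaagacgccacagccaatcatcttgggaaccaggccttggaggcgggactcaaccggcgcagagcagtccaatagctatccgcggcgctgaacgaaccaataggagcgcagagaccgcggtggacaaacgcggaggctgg
Orc1, chr4:108579204-108579503, plus strand: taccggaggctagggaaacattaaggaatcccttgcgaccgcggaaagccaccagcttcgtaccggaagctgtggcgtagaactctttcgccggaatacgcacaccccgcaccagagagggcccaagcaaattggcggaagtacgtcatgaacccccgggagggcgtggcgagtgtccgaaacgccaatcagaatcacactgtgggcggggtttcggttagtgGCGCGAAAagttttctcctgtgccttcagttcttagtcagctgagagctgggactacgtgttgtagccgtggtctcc
In *Mcm5*, 2 matches on opposite strands overlap and stand as 1 run of capitals. The match begins 8 bases before the start of *Dtl* and 27 bases before that of *Orc1*, and 39 bases into the transcript of *Mcm3*. A match is a description of the letters, not a measurement of binding.

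The regulators of G1 and S phase moved in both directions, with 15 of 31 called lower and 4 called higher. *Tfdp1*, the partner with which E2F proteins bind DNA, read 10.43, 10.59 and 10.58 with DMSO and 8.59, 9.03 and 8.69 with PP242 (3.41-fold lower, log2 change -1.77, SE 0.12, adjusted p = 9.68e-07). *E2f8*, an atypical E2F, was at least 1.98-fold lower (-1.81, SE 0.13) and *Ccna2*, the S phase cyclin A2, at least 2.31-fold lower (-1.75, SE 0.17). The inhibitors of cyclin-dependent kinases parted. *Cdkn1b*, which encodes p27 and is high in resting lymphocytes, read 7.40, 7.25 and 7.42 with DMSO and 8.29, 8.41 and 8.43 with PP242 (2.03-fold higher, log2 change 1.02, SE 0.11, adjusted p = 3.29e-05), close to its mean of 8.52 before stimulation. *Cdkn1a*, which encodes p21, a target of p53, read 8.32, 8.20 and 8.41 with DMSO and 7.10, 7.08 and 7.04 with PP242 (2.36-fold lower, -1.24, SE 0.10, adjusted p = 2.52e-06). *Cdkn1a* with PP242 thus lay below its mean in unstimulated cells, 8.13, as well as below DMSO. The pocket protein gene *Rb1* (0.74, SE 0.12) and *Tfdp2* (0.70, SE 0.12) were called higher.

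Of 60 mitosis genes 38 were called lower and 3 higher, with a median change of -0.64. *Mki67*, the proliferation antigen Ki-67, read 8.10, 7.78 and 7.42 with DMSO and 5.43, 6.02 and 5.14 with PP242 (4.71-fold lower, adjusted p = 3.63e-05). Its PP242 arrays were spread. *Top2a*, the topoisomerase that untangles chromosomes, was at least 3.10-fold lower (-1.99, SE 0.10), and *Ncaph*, a condensin subunit, 3.40-fold lower (-1.76, SE 0.18). *Smc4*, another condensin subunit, went the other way (0.50, SE 0.09, adjusted p = 0.00142). It read 10.76, 10.78 and 10.61 with DMSO and 11.21, 11.24 and 11.19 with PP242, and 11.44 on average before stimulation. Among 33 genes of DNA repair and checkpoints, 16 were called lower and 1 higher. The largest falls there were of *Chek1*, the kinase of the replication checkpoint (-1.90, SE 0.22), and *Exo1*, a nuclease of mismatch repair (-1.71, SE 0.15).

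Genes of nucleotide and one-carbon supply fell as well. Lower calls were made for 9 of 13 genes of purine synthesis, 12 of 19 of pyrimidine and deoxynucleotide synthesis and 11 of 18 of serine and one-carbon metabolism. *Mthfd1*, which makes one-carbon units on folate in the cytosol, read 8.75, 8.56 and 8.75 with DMSO and 7.25, 7.24 and 6.99 with PP242 (2.89-fold lower, log2 change -1.53, SE 0.11, adjusted p = 1.19e-06). *Cad*, the enzyme that starts pyrimidine synthesis, read 9.41, 9.43 and 9.24 with DMSO and 8.06, 8.10 and 8.15 with PP242 (2.38-fold lower, -1.25, SE 0.10, adjusted p = 4.5e-06). All PP242 arrays were below all DMSO arrays for both genes. *Rrm1*, the large subunit of ribonucleotide reductase (-1.58, SE 0.21), *Adsl* and *Atic* of the purine pathway (-1.11, SE 0.10, and -1.08, SE 0.11) and *Tyms*, which makes thymidylate (-1.24, SE 0.19), also fell. The only 2 genes called higher in these lists were *Ctps2*, 1 of the CTP synthases (0.70, SE 0.10, adjusted p = 0.000322), and *Uck1*, a kinase that salvages uridine and cytidine (0.48, SE 0.10, adjusted p = 0.00351).

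Ribosome assembly had the highest share of lower calls among the 52 lists, with 56 of 66 genes lower and 0 higher and a median change of -0.64. *Nhp2*, a protein of the particles that guide pseudouridine into ribosomal RNA, read 9.40, 9.64 and 9.48 with DMSO and 7.96, 8.02 and 8.42 with PP242 (2.59-fold lower, adjusted p = 2.75e-05). *Nolc1*, a nucleolar chaperone of such particles, read 8.95, 8.88 and 8.58 with DMSO and 7.51, 7.58 and 7.60 with PP242 (2.36-fold lower, adjusted p = 5.61e-05). Both genes kept the 2 groups of arrays well apart. *Polr1b* and *Polr1e*, subunits of the polymerase that makes ribosomal RNA, fell by 0.89 (SE 0.15) and 0.90 (SE 0.14) on the log2 scale. *Maf1*, the repressor of RNA polymerase III that mTORC1 is known to hold inactive, was called higher (0.44, SE 0.11, adjusted p = 0.0101), as was *Polr3gl*, an alternative subunit of that polymerase (0.70, SE 0.15, adjusted p = 0.00436). The small nucleolar RNAs *Snora73a* (7.85, 8.06 and 7.90 with DMSO, 6.66, 6.39 and 6.5 with PP242) and *Snora73b* (9.17, 9.23 and 9.04 with DMSO, 7.83, 7.54 and 7.79 with PP242), chosen after their values were seen, each fell by 1.42 on the log2 scale. Their sequences are near copies, so their signals may not be separate. The letters CCGGAAGT, a site of ETS factors such as GABP, lay on either strand in 17 of 55 promoters of ribosome assembly genes with 1 start (30.9%) and in 3.95% of all such promoters in RefSeq. Of those 17 genes 14 were called lower, against 56 of 66 (84.8%) in the whole list. The letters were not particular to this list. They lay in 24.2% of proteasome and 22.9% of DNA replication promoters. Of the promoters of all genes called lower 11.5% held them, of those called higher 5.98% and of those of all measured genes 5.14%. Whether the letters go with the fall was not tested.

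Genes for the proteins of the cytosolic ribosome mostly did not pass the test, unlike those of its assembly factors. Of 60 measured genes 49 did not pass the test, 7 were called lower (11.7%) and 4 higher (6.67%), with a median change of -0.04. Over all genes the shares were 9.27% and 7.38%. Among the 5545 genes with the highest means they were 21.7% and 18.3%. The median level of the list with DMSO, 9.54, lay in the range of those genes, so the shares of this list were smaller than those of genes of such levels. Without PP242 replicate 1 the lower calls were 4, and without DMSO replicate 1, DMSO replicate 2, PP242 replicate 2 or PP242 replicate 3 the higher calls were 1, 2, 2 and 1. Genes of this family have many processed pseudogenes that the probes may also read, so single members such as *Rpl34* (-1.37, SE 0.17) are uncertain. The translation factors lay between, with 21 of 43 called lower and 2 higher. Examples are *Eif3b* and *Eif3c* of the scaffold that binds the small subunit (-0.81, SE 0.10, and -0.80, SE 0.10) and *Eif2b1*, of the factor that recharges eIF2 with GTP (-0.86, SE 0.16).

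**Figure D3:**
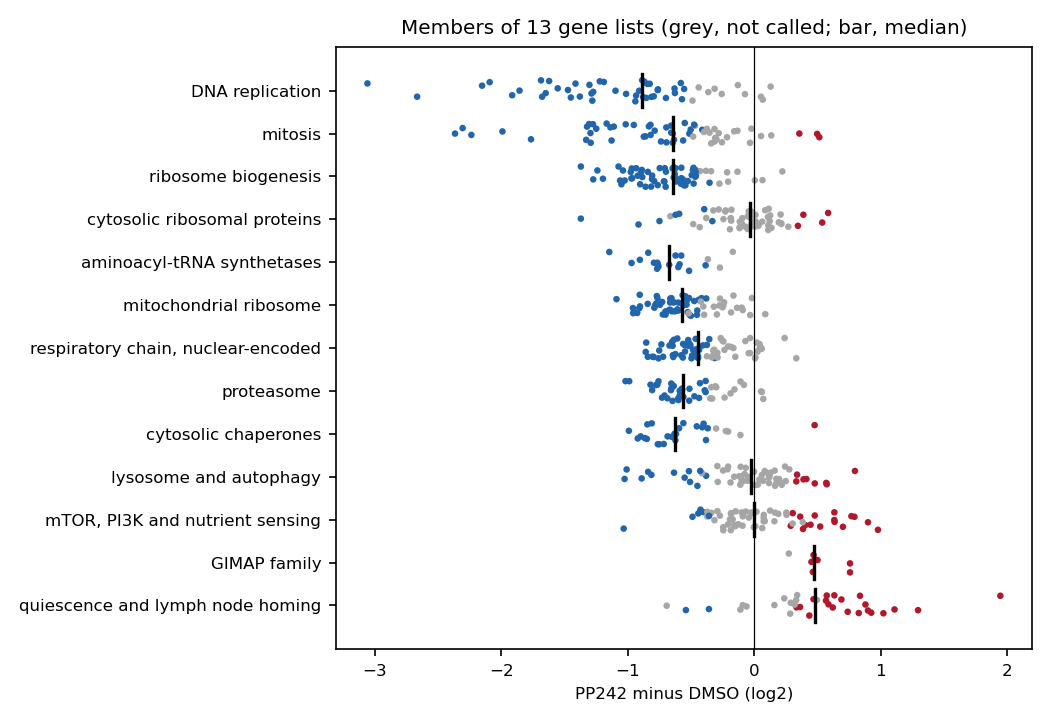
Change with PP242 against DMSO (log2, horizontal axis) of each measured member of 13 lists, called lower in blue, called higher in red and not called in grey, with a bar at the median and points spread vertically at random. The medians of ribosome biogenesis and of the cytosolic ribosome are -0.64 and -0.04.

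Genes for the charging of tRNA fell as well. Of 19 aminoacyl-tRNA synthetase genes 16 were called lower and 0 higher (median -0.67). *Farsb*, a subunit of the phenylalanine enzyme, read 8.45, 8.63 and 8.45 with DMSO and 7.42, 7.13 and 7.54 with PP242 (2.21-fold lower, adjusted p = 4.7e-05). *Kars*, the lysine enzyme, read 10.37, 10.29 and 10.26 with DMSO and 9.31, 9.44 and 9.46 with PP242 (1.87-fold lower, adjusted p = 7.53e-05). Neither gene overlapped between the groups, and the PP242 levels were near the means of unstimulated cells (7.08 for *Farsb* and 9.30 for *Kars*). The amino acid response element, searched as TGATGCAA on both strands, lay in 3 of 11 synthetase promoters with 1 start (27.3%, *Iars*, *Tars* and *Yars*) and in 0.954% of all such promoters. Those 3 genes, named for these letters, changed by -0.76, -0.59 and -0.97 and were called lower, as were 16 of 19 in the whole list. Over all genes called lower 0.914% of promoters held the letters, over those called higher 0.797% and over all measured genes 0.799%. Whether the letters go with the fall was not tested.

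Genes of the machinery that folds and breaks down proteins fell as well. Among 28 cytosolic chaperones 23 were called lower and 1 higher. *Cct7*, a subunit of the chaperonin that folds actin and tubulin, read 10.75, 10.75 and 10.76 with DMSO and 9.85, 9.81 and 9.92 with PP242 (1.86-fold lower, adjusted p = 0.000124). *Hsph1* and *Stip1*, partners of HSP70 and HSP90, fell by 0.92 (SE 0.09) and 0.87 (SE 0.09) on the log2 scale. Of 44 proteasome genes 31 were called lower and 0 higher (median -0.56), among them *Psmc4*, an ATPase of the cap (9.49, 9.47 and 9.26 with DMSO, 8.56, 8.52 and 8.72 with PP242, adjusted p = 0.000329). The arrays did not overlap. The falls reached to *Psmc5*, another cap ATPase (-0.78, SE 0.13), *Psmb2* of the catalytic core (-0.82, SE 0.12) and the assembly chaperone *Psmg1* (-1.02, SE 0.16).

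In the endoplasmic reticulum 17 of 39 genes of folding and the unfolded protein response were called lower and 3 higher. The largest fall was of *Sdf2l1*, a co-chaperone of the HSP70 protein BiP, which read 8.69, 8.87 and 8.43 with DMSO and 6.26, 6.41 and 6.59 with PP242 (4.74-fold lower, log2 change -2.25, SE 0.13, adjusted p = 1.77e-07). Its mean before stimulation was 6.25, so the PP242 arrays lay at the level of resting cells. *Hspa5*, BiP itself, fell by 0.82 (SE 0.12) and *Calr*, calreticulin, by 0.87 (SE 0.10) on the log2 scale, while *Dnajb9*, another partner of BiP, was called higher (0.51, SE 0.11, adjusted p = 0.00686). The promoter of *Sdf2l1* is shown for its repeated CCAAT boxes, the site of NF-Y. CCAAT was found on either strand in 23 of 31 promoters of this list (74.2%), in 14 of 14 of cholesterol synthesis (100%), in 31 of 47 of mitosis (66%) and in 38.2% of all promoters with 1 start. *Hsd17b7*, an enzyme of cholesterol synthesis (a list with 12 of 22 genes called lower and 1 higher) that read 6.08, 6.30 and 6.08 with DMSO and 5.51, 4.48 and 4.39 with PP242 (at least 2.12-fold lower, log2 change -1.36, SE 0.22, adjusted p = 0.000739), is shown beside it. Capitals mark CCAAT or its reverse complement, 4 matches in *Sdf2l1* and 3 in *Hsd17b7*.
Sdf2l1, chr16:17132334-17132633, minus strand: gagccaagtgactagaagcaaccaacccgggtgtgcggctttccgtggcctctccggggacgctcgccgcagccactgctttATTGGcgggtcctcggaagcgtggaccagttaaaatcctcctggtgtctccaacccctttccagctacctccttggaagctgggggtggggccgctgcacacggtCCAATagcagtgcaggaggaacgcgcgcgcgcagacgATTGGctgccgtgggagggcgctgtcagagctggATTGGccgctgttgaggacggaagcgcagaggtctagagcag
Hsd17b7, chr1:169969156-169969455, minus strand: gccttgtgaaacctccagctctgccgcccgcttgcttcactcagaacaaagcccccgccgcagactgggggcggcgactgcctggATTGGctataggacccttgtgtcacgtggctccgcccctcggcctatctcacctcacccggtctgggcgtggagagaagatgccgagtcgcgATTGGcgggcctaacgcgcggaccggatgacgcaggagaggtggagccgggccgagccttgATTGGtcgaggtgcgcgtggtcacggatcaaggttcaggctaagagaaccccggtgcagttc
Of the 23 ER promoters with the letters 9 belonged to genes called lower and 2 to genes called higher, and of the 14 of cholesterol synthesis 8 and 1. Over all genes called lower 44.8% of promoters held CCAAT, over those called higher 38.9% and over all measured genes 38.9%.

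Mitochondrial genes encoded in the nucleus fell across several functions. Of 70 genes of the mitochondrial ribosome 51 were called lower and 0 higher (median -0.57), and of 71 of the respiratory chain 40 and 0 (median -0.44). *Mrpl54* read 7.88, 8.16 and 8.17 with DMSO and 6.71, 7.02 and 7.21 with PP242 (2.13-fold lower, adjusted p = 0.000301). *Ndufa9*, of complex I, read 9.62, 9.65 and 9.57 with DMSO and 8.66, 8.80 and 8.96 with PP242 (1.75-fold lower, adjusted p = 0.000173). Both genes separated the groups, by more for *Mrpl54*. Of 42 genes of import, mitochondrial chaperones and biogenesis, 24 were called lower and 2 higher. *Hspd1*, the mitochondrial chaperone HSP60, read 8.95, 8.99 and 8.98 with DMSO and 7.58, 7.65 and 7.89 with PP242 (2.41-fold lower, log2 change -1.27, SE 0.10, adjusted p = 3.5e-06). The import channel genes *Timm50* and *Tomm40* fell by 1.24 (SE 0.14) and 1.0 (SE 0.14) on the log2 scale. In the TCA cycle 16 of 32 genes were called lower and 1 higher, with *Idh3a* at -1.04 (SE 0.20) and *Fh1*, fumarase, at -0.91 (SE 0.14). Of 25 genes of fatty acid oxidation 10 were called lower and 1 higher, the largest fall being of the acyl-CoA thioesterase *Acot7* (-1.52, SE 0.14). The gene called higher was *Cpt1a*, a carnitine palmitoyltransferase (0.35, SE 0.09, adjusted p = 0.0172). *Cpt1a* did not pass without DMSO replicate 3 or PP242 replicate 1, with centred arrays, or in a fit of the PP242 and DMSO arrays alone. The genes encoded in mitochondrial DNA were not among those with 1 gene symbol.

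Of 13 genes of polyamine synthesis 5 were called lower and 1 higher. *Odc1*, ornithine decarboxylase, read 7.49, 7.40 and 7.55 with DMSO and 6.14, 6.61 and 6.26 with PP242 (2.21-fold lower, adjusted p = 2.07e-05). *Srm*, spermidine synthase, read 9.88, 9.99 and 9.79 with DMSO and 8.38, 8.45 and 8.56 with PP242 (2.68-fold lower, adjusted p = 9.4e-07). *Srm* remained above its mean before stimulation, 7.73, and *Odc1* lay below its own, 6.82. *Eif5a*, the protein modified with a part of spermidine, fell less (-0.50, SE 0.09, adjusted p = 0.00109).

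Transcripts of the pathway that PP242 inhibits held calls of both signs. Of 63 genes of mTOR, PI3K and nutrient sensing 16 were called higher (25.4%) and 6 lower (9.52%), and the median change was 0. Over all genes the shares were 7.38% and 9.27%. Among the 5545 genes with the highest means they were 18.3% higher and 21.7% lower. The median level of the list with DMSO, 7.54, lay in the range of those genes. Without DMSO replicate 2, DMSO replicate 3 or PP242 replicate 2 the lower calls were 2, 3 and 3. *Mtor* itself read 8.52, 8.52 and 8.38 with DMSO and 8.56, 8.39 and 8.36 with PP242, which overlap (-0.04, SE 0.10, adjusted p = 0.84, 95% interval of the change -0.25 to 0.17). *Rptor* did not pass the test (-0.16), and *Rictor*, the subunit of mTORC2, read 8.33, 8.15 and 7.88 with DMSO and 8.89, 8.75 and 8.62 with PP242 (1.55-fold higher, 0.63, SE 0.12, adjusted p = 0.00248). The receptors of insulin and IGF-1, *Insr* (0.52, SE 0.11) and *Igf1r* (0.64, SE 0.10), and the PI3K adaptor *Pik3r5* (0.70, SE 0.10) were higher. These 5 genes other than *Mtor* were chosen after their values were seen.

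Genes that damp the same pathway were among those that rose. *Pik3ip1*, a membrane protein that binds and inhibits PI3K, read 6.36, 6.87 and 6.35 with DMSO and 7.57, 7.45 and 7.24 with PP242 (1.87-fold higher, 0.90, SE 0.14, adjusted p = 0.000451). *Inpp4b*, a lipid phosphatase, read 8.84, 8.86 and 8.89 with DMSO and 9.72, 9.66 and 9.52 with PP242 (1.70-fold higher, 0.77, SE 0.10, adjusted p = 0.000156). *Phlpp1*, a phosphatase of AKT, changed by 0.79 (SE 0.09, adjusted p = 7e-05), and no array of one group reached the other for these 3 genes. *Slc38a9*, the lysosomal arginine sensor upstream of mTORC1, rose 1.97-fold (0.98, SE 0.13, adjusted p = 0.000139). *Tbc1d7*, the third subunit of the TSC complex, was the largest fall of the list. It read 5.90, 6.13 and 6.12 with DMSO and 5.09, 4.85 and 5.12 with PP242 (2.04-fold lower, -1.03, SE 0.13, adjusted p = 8.98e-05).

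**Figure D4:**
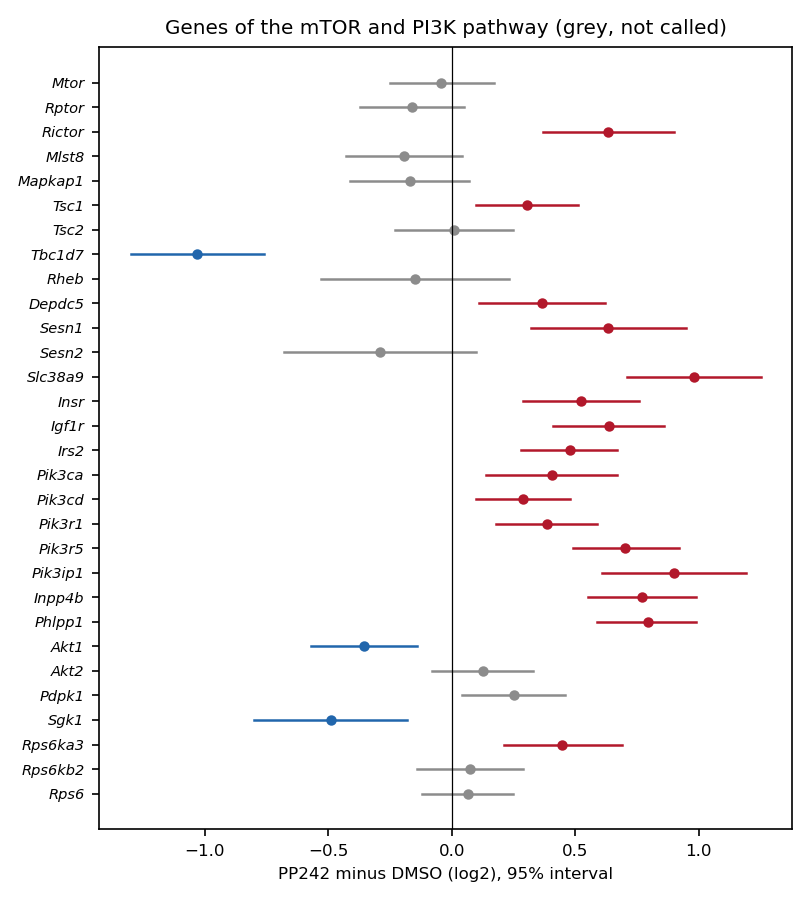
Change with PP242 against DMSO (log2, horizontal axis) for 30 genes of the mTOR and PI3K pathway, point and 95% interval, in red where called higher, blue where called lower and grey where not called. *Mtor* lies at -0.04 with an interval from -0.25 to 0.17, and *Slc38a9* at 0.98.

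Lysosome and autophagy genes moved in both directions. Of 62 measured, 12 were called lower (19.4%) and 8 higher (12.9%). The median level of the list with DMSO was 7.74. Among the 5545 genes with the highest means (7.09 to 12.91), 21.7% were called lower and 18.3% higher. The shares of this list were thus no larger than those of genes of such levels. The largest falls were of lysosomal hydrolases, such as *Gusb*, beta-glucuronidase (8.98, 9.09 and 9.02 with DMSO, 7.92, 8.06 and 8.08 with PP242, 2.01-fold lower, adjusted p = 1.39e-05), and *Ctsz*, a cathepsin (-0.89, SE 0.13), and of *Fnip2*, a partner of folliculin (at least 1.30-fold lower). The largest rises were of autophagy genes. *Ulk2*, a kinase that starts autophagy, read 7.16, 7.31 and 7.07 with DMSO and 7.79, 8.03 and 8.11 with PP242 (1.74-fold higher, adjusted p = 0.000182), and *Map1lc3b*, the protein LC3 that coats the autophagosome, changed by 0.57 (SE 0.11, adjusted p = 0.00198). Counts in this list depended on single arrays, with 7 lower and 5 higher without PP242 replicate 1 and 10 lower and 5 higher without DMSO replicate 2.

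Genes of quiescence and lymph node homing rose. Of 34 measured, 20 were called higher and 2 lower (median 0.48). *S1pr1*, the receptor by which T cells leave lymph nodes, read 9.51, 9.47 and 9.31 with DMSO and 10.66, 10.57 and 10.39 with PP242 (2.16-fold higher, 1.11, SE 0.10, adjusted p = 8.86e-06), and 10.67 on average before stimulation. *Klf2*, the factor that switches on *S1pr1*, chosen after its values were seen, read 6.90, 6.90 and 6.53 with DMSO and 7.55, 7.74 and 7.52 with PP242 (1.77-fold higher, 0.83, SE 0.12, adjusted p = 0.000279). *Cd55*, a membrane inhibitor of complement, read 7.13, 7.31 and 7.36 with DMSO and 8.69, 8.25 and 8.74 with PP242 (2.46-fold higher, adjusted p = 1.81e-05). The groups did not overlap for *S1pr1* and *Klf2*, nor for *Cd55*, where this was a condition of its choice. The PP242 means of these 3 genes lay close to those of unstimulated cells. *Txnip*, which limits glucose uptake (0.88, SE 0.09), *Ccng2*, cyclin G2, a FOXO target (0.93, SE 0.10), and *Bcl2*, the survival factor (0.74, SE 0.09), also rose. *Dapl1* went against the list (-0.54, SE 0.12, adjusted p = 0.0081). In the BCL2 family *Bcl2l11*, the pro-apoptotic protein BIM, read 7.50, 7.57 and 7.63 with DMSO and 8.56, 8.45 and 8.51 with PP242 (1.92-fold higher, adjusted p = 3.63e-05), and *Bcl2l1*, the survival factor BCL-XL, read 6.92, 7.22 and 7.01 with DMSO and 6.06, 6.23 and 5.85 with PP242 (2.01-fold lower, adjusted p = 0.000287).

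The GIMAP genes, which encode GTPases of lymphocytes and lie in 1 cluster on chromosome 6, rose as a block. Of 8 measured, 7 were called higher, and *Gimap3* did not pass the test (0.27). *Gimap4* read 10.51, 10.44 and 10.44 with DMSO and 11.31, 11.23 and 11.11 with PP242 (1.69-fold higher, adjusted p = 8.03e-05). *Gimap6* read 8.71, 8.80 and 8.43 with DMSO and 9.37, 9.44 and 9.41 with PP242 (1.69-fold higher, adjusted p = 0.000205). For all 8 genes every PP242 array lay above every DMSO array, as it did for 15% of all genes. The genes are related in sequence, so probes of 1 member may read another.

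Early genes of the T cell receptor and NF-kappaB response fell in part, with 13 of 42 called lower and 1 higher. *Dusp4*, a phosphatase of MAP kinases, read 9.74, 9.57 and 9.42 with DMSO and 8.0, 7.95 and 7.93 with PP242 (3.07-fold lower, -1.62, SE 0.10, adjusted p = 5.58e-07). *Nr4a3*, a nuclear receptor induced by the T cell receptor, read 9.12, 9.05 and 9.07 with DMSO and 7.68, 7.85 and 7.71 with PP242 (2.52-fold lower, -1.33, SE 0.10, adjusted p = 1.36e-06). With 50 nM Torin 1 the means were 9.33 for *Dusp4* and 8.92 for *Nr4a3*. *Dusp4* with PP242 lay below its mean before stimulation, 8.65. *Spry1*, an inhibitor of MAP kinase signals, fell by 0.92 (SE 0.13) and *Nr4a2* by 0.88 (SE 0.16) on the log2 scale, while *Nfkbiz*, a nuclear regulator of NF-kappaB, was called higher (0.38, SE 0.09, adjusted p = 0.00814). The factor *Irf4*, which receptor signals induce, read 9.83, 9.64 and 9.80 with DMSO and 9.64, 9.66 and 9.61 with PP242. These values overlap, and *Irf4* did not pass the test (-0.12, SE 0.12, adjusted p = 0.575).

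**Figure D5:**
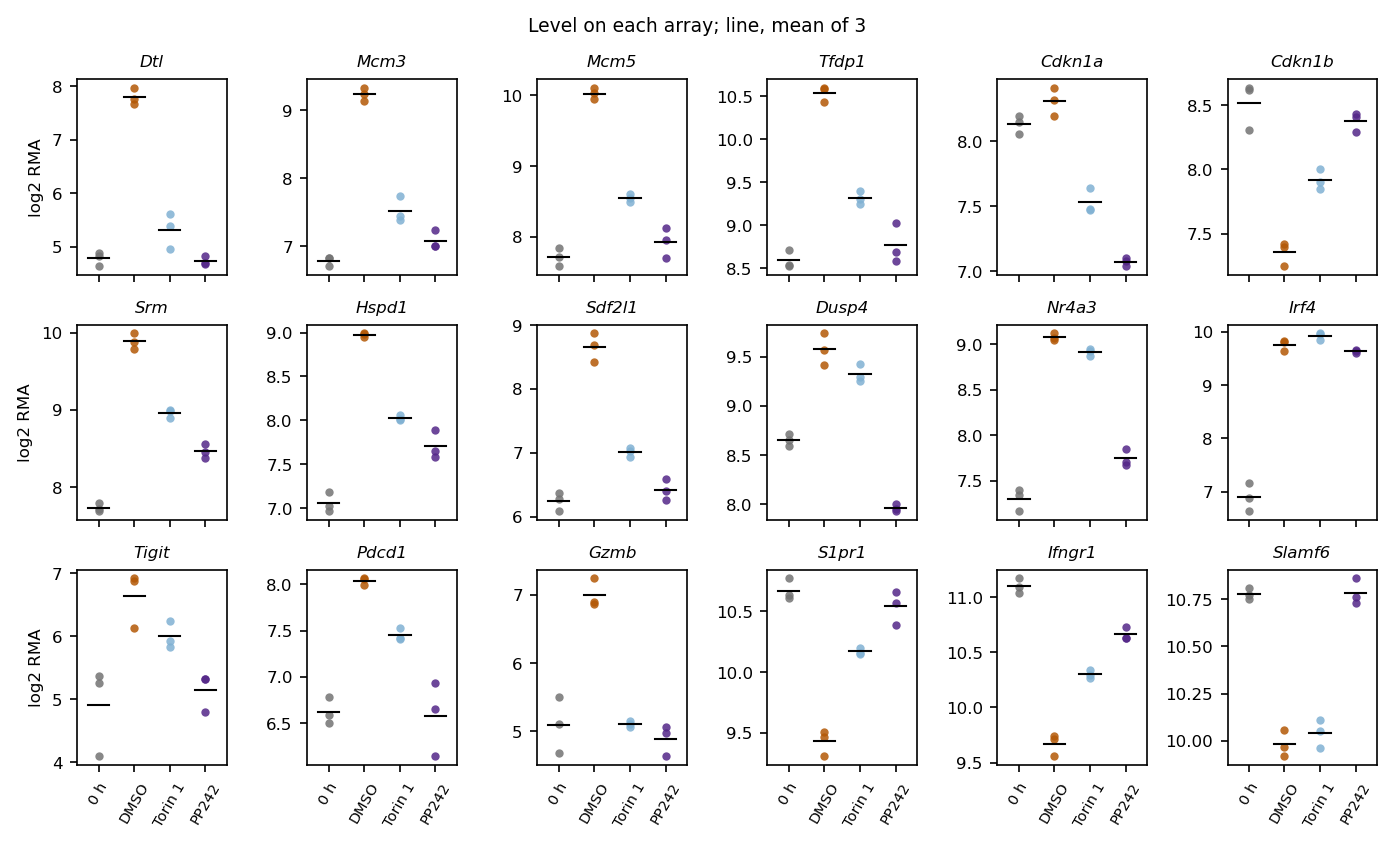
Level on each array (log2 RMA, vertical axis, own scale in each panel) of 18 genes in unstimulated cells (0 h) and in cells activated with DMSO, 50 nM Torin 1 or 500 nM PP242, with a line at the mean of 3 arrays. For *Irf4* the PP242 and DMSO arrays overlap, and for the other 17 genes they do not. Over all genes the PP242 arrays lie wholly below the DMSO arrays for 15.3% and wholly above for 15%.

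Factors and receptors that define Treg cells changed in different directions. *Foxp3* read 11.43, 11.29 and 11.34 with DMSO and 11.73, 11.62 and 11.61 with PP242, a called rise of 1.23-fold (0.30, SE 0.09, adjusted p = 0.0302). Its adjusted p ran from 0.000385 to 0.112 over the alternatives, and in limma it did not pass without DMSO replicate 2 (adjusted p = 0.101), DMSO replicate 3 (0.0708), PP242 replicate 1 (0.112) or PP242 replicate 2 (0.0569), with quantile normalization or centred arrays, or in a fit of the 6 arrays alone. Of 28 factors 9 were called higher (32.1%) and 4 lower (14.3%), against 7.38% and 9.27% of all genes. Among the 5545 genes with the highest means the shares were 18.3% higher and 21.7% lower. The median level of the list with DMSO, 8.16, lay in the range of those genes. The higher calls numbered 4 without DMSO replicate 2, DMSO replicate 3 or PP242 replicate 1, 5 without PP242 replicate 3 and 4 with centred arrays. The lower calls were 2 without DMSO replicate 1, DMSO replicate 2, PP242 replicate 2 or PP242 replicate 3. *Satb1*, a chromatin organizer of early Treg development, read 9.44, 9.46 and 9.44 with DMSO and 10.41, 10.32 and 10.26 with PP242 (1.84-fold higher, adjusted p = 3.55e-05). *Tbx21*, which encodes T-bet, read 7.12, 6.52 and 7.0 with DMSO and 5.59, 5.64 and 5.60 with PP242 (2.41-fold lower, adjusted p = 0.000286). With PP242 both genes lay near their means before stimulation, 10.25 for *Satb1* and 5.58 for *Tbx21*.

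Of 36 surface receptors and suppressive molecules 9 were called lower (25%) and 7 higher (19.4%). These shares were close to the 21.7% lower and 18.3% higher among the 5545 genes with the highest means. The median level of the list with DMSO, 8.06, lay in the range of those genes. The lower calls included the inhibitory receptors *Pdcd1*, PD-1 (8.05, 8.06 and 7.99 with DMSO, 6.94, 6.66 and 6.15 with PP242, 2.73-fold lower, adjusted p = 3.55e-05), and *Tigit* (6.88, 6.92 and 6.13 with DMSO, 5.32, 4.80 and 5.33 with PP242, 2.81-fold lower, adjusted p = 0.00301). Such receptors did not all fall, since *Ctla4* (0.34, SE 0.10, adjusted p = 0.0308) and *Cd96* (0.45, SE 0.10, adjusted p = 0.00782) were called higher. *Ctla4* did not pass without DMSO replicate 2, PP242 replicate 1 or PP242 replicate 2. Nor did it pass with quantile normalization, centred arrays or a fit of the PP242 and DMSO arrays alone. *Gzmb*, the protease granzyme B, read 6.90, 6.87 and 7.24 with DMSO and 5.06, 4.97 and 4.64 with PP242 (4.33-fold lower, adjusted p = 5.49e-06). Another cytotoxic granule gene, *Nkg7*, the called gene of the NK and CD8 list, fell 3.02-fold (-1.59, SE 0.14). The higher calls included the ectoenzymes that make adenosine, *Nt5e*, CD73 (9.62, 9.79 and 9.52 with DMSO, 10.44, 10.33 and 10.23 with PP242, 1.61-fold higher), and *Entpd1*, CD39 (0.57, SE 0.12, adjusted p = 0.00565). *Slamf6*, a receptor of lymphocyte adhesion, read 9.97, 10.06 and 9.92 with DMSO and 10.86, 10.76 and 10.73 with PP242 (1.74-fold higher, adjusted p = 4.93e-05), with a mean of 10.04 with 50 nM Torin 1. *Il2ra*, the high-affinity chain of the IL-2 receptor, chosen after its values were seen, and *Icos* did not pass the test (-0.07 and -0.05), and their arrays overlapped.

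Cytokine receptor genes held calls of both signs. Both chains of the IL-12 receptor fell. *Il12rb1* read 8.76, 8.16 and 8.76 with DMSO and 7.08, 7.31 and 7.20 with PP242 (2.58-fold lower, adjusted p = 4.88e-05), and *Il12rb2* 6.30, 5.84 and 6.84 with DMSO and 4.70, 4.93 and 4.70 with PP242 (at least 2.73-fold lower, adjusted p = 0.000733). *Stat4*, which carries the IL-12 signal, rose (0.76, SE 0.15, adjusted p = 0.00281). *Ifngr1*, a chain of the interferon-gamma receptor, read 9.71, 9.74 and 9.56 with DMSO and 10.73, 10.63 and 10.63 with PP242 (2.00-fold higher, adjusted p = 9.18e-06). Of 33 receptors and their feedback genes 10 were called higher and 4 lower, and the higher calls were 6 without DMSO replicate 3, 4 without PP242 replicate 1 and 6 without PP242 replicate 2. The lower calls were 2 without DMSO replicate 1 or PP242 replicate 2. The shares of the list, 30.3% higher and 12.1% lower, compare with 7.38% and 9.27% of all genes. Among the 5545 genes with the highest means they compare with 18.3% and 21.7%. The median level of the list with DMSO, 8.72, lay in the range of those genes. Among the cytokines 11 of 36 were called lower (30.6%) and 1 higher (2.78%), against 9.27% and 7.38% of all genes. *Cd40lg*, the ligand of CD40, read 7.50, 7.73 and 7.72 with DMSO and 5.91, 5.99 and 6.11 with PP242 (3.13-fold lower, adjusted p = 1.29e-06), and *Tnfsf8*, the ligand of CD30, was the gene called higher (0.50, SE 0.12). Of 27 chemokine receptors and integrins 7 were called lower (25.9%) and 3 higher (11.1%), against 9.27% and 7.38% of all genes. The lower calls of this list were 4 without DMSO replicate 2. The largest falls there were of the chemokine receptor *Ccr8* (-2.63, SE 0.17, at least 5.17-fold) and of *Gpr183*, which senses oxysterols (-1.47, SE 0.14). *Cxcr4*, *Itga4*, the alpha4 integrin, and *S1pr4* were called higher, at 0.89 (SE 0.12), 0.85 (SE 0.10) and 0.54 (SE 0.11).

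Genes of chromatin and of RNA processing held calls of both signs. *Ezh2*, the methyltransferase of Polycomb, fell by 0.64 (SE 0.09) and the DNA methyltransferases *Dnmt1* and *Dnmt3a* by 0.63 (SE 0.09) and 0.61 (SE 0.10) on the log2 scale. *Chd2*, a chromatin remodeler, read 7.44, 7.48 and 7.48 with DMSO and 8.71, 8.39 and 8.39 with PP242 (2.04-fold higher, adjusted p = 3.69e-05), and *Kmt2a*, a histone H3 methyltransferase, rose by 0.77 (SE 0.09). The kinases of splicing factors *Clk1* (10.11, 9.95 and 10.15 with DMSO, 11.11, 10.97 and 10.89 with PP242, 1.89-fold higher, adjusted p = 3.48e-05) and *Clk4* (0.58, SE 0.09) rose, while core spliceosome genes such as *Snrpa1* and *Snrpb2* fell by 0.87 (SE 0.11) and 0.87 (SE 0.13). In all, 22 of 60 splicing genes were called lower and 10 higher, the latter 6 without DMSO replicate 1, 5 without DMSO replicate 2 and 4 without PP242 replicate 1. These shares, 36.7% lower and 16.7% higher, compare with 21.7% and 18.3% among the 5545 genes with the highest means. The median level of the list with DMSO, 9.25, lay in the range of those genes. Of 44 genes of transport between nucleus and cytoplasm 22 were called lower and 2 higher. *Ran*, the GTPase that sets their direction, read 8.83, 9.02 and 8.81 with DMSO and 7.17, 7.69 and 7.89 with PP242 (2.46-fold lower, adjusted p = 8.04e-05). *Myc*, which drives growth genes in activated T cells, read 10.55, 10.52 and 10.55 with DMSO and 10.18, 10.09 and 9.90 with PP242, a smaller fall of 1.40-fold (-0.48, SE 0.11, adjusted p = 0.00597), still above its mean of 9.65 before stimulation.

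Some microRNA genes were called too, 41 of 478 higher (8.58%) and 16 lower (3.35%), against 7.38% and 9.27% of all genes. *Mir342*, a microRNA gene within an intron of *Evl* that is expressed in lymphocytes, was chosen after its values were seen. It read 8.95, 8.57 and 9.21 with DMSO and 10.47, 9.78 and 9.81 with PP242 (2.16-fold higher, 1.11, SE 0.18, adjusted p = 0.000843). All PP242 arrays lay above all DMSO arrays, above the mean before stimulation, 9.41, and above the mean with 50 nM Torin 1, 9.35. The mature RNAs from its hairpin are shown because their seeds, bases 2 to 8, in capitals, set which messages each can pair with. They are from RefSeq, build GRCm38.p6.
mmu-miR-342-5p, chr12:108658638-108658659, plus strand: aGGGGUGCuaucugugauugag
mmu-miR-342-3p, chr12:108658680-108658702, plus strand: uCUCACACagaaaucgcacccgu
The seeds differ, and the transcript cluster does not tell the arms of the hairpin apart, nor the mature RNA from its precursor.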

How the data were processed

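The authors hybridised RNA of each sample to a GeneChip Mouse Gene 2.0 ST array and deposited 1 table of log2 expression values after RMA, with background correction, quantile normalization and probe summary done by them. The submitters' processing notes name Partek 6.6. The genome build behind the transcript clusters is not given in the sources used here. Among the 41345 clusters, 23521 had 1 gene symbol, 1820 several and 16004 none, and the cluster with the highest mean stood for each of the 22180 genes. No further scaling, filter or pseudocount was applied. Low RMA values are compressed and understate folds. The array medians lay between 4.95 and 5.08, and with 3 arrays a group their number limits the precision.

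The groups came from the submitters' labels. All 12 arrays were fitted with limma 3.58.1 (R 4.3.3) as 4 group means with empirical Bayes moderation and no block, and PP242 minus DMSO was tested two-sided with Benjamini-Hochberg adjustment over 22180 genes. The simulated comparison held 22180 genes, of which 67 were changed by 0.5, 67 by 1 and 66 by 2 (log2). Of these, 29.9%, 89.6% and 98.5% were recovered. In the data far more genes, 3693, were called. Benjamini-Hochberg adjustment is stricter where fewer genes differ, so the simulated recovery of small changes may be too low for these data. Tables were handled in Python 3.11.15 with pandas 2.3.3. Of 1855 list entries 1647 were measured, with a gene counted once for each list that holds it. Motifs were searched on both strands in RefSeq promoters (GRCm38.p6) of genes with 1 start, 14276 of the genes measured. E-box, CRE, FOXO, AP-1 and CLEAR letters were also searched and are not described.

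The genes that could be named were set by a rule: the 25 largest called rises and falls with no overlap, without predicted or small RNA genes, up to 5 called members of each list with the largest change and those against its direction, genes the study names for these arrays, *Mtor* and *Foxp3*. Not all of them are described: those shown were picked from this set, with their values known, as examples of the lists. The members and lists were chosen with earlier results of these data known. Alternatives covered the scaling, a filter on dim genes, the choice of cluster, the empirical Bayes step (without it, the ANOVA of the methods), array weights, the arrays fitted, the replicate block, a stricter threshold and leaving out each array.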

Additional observations from a re-analysis of the deposited data

Results flagged for a closer look

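Signal was also seen in the 19165 transcript clusters that the gene-level comparison did not use, because they carried no symbol, several symbols or a lower mean than another cluster of their gene. In the limma fit of all clusters, 1192 of them were called higher with PP242 than with DMSO and 534 lower, at a Benjamini-Hochberg adjusted p under 0.05. Most of these clusters have no gene name here, so they are given as counts.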

How the results depend on the processing

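Under the alternatives that kept the threshold, the numbers of genes called stayed within 1.5 times of 1636 higher and 2057 lower. At an adjusted p under 0.01 there were 839 higher and 1239 lower. Leaving out 1 array at a time gave 1117 to 1607 higher and 1558 to 2058 lower, and 71 to 94 higher and 246 to 304 lower by at least 2-fold. Quantile normalization gave 1358 higher and 2427 lower (64.1% lower) and centred arrays 1217 and 2401 (66.4%), and they moved the median change of all genes from 0.01 to -0.02 and -0.04. The replicate block gave 1560 higher and 2042 lower. The same-numbered PP242 and DMSO arrays correlated at 0.059, 0.039 and -0.013 in their deviations from the group means, so the numbers were not read as pairs. Among 354 called genes followed through the alternatives, 4 changed sign with the median of the clusters in place of the highest one, *Gpr155* (-0.085), *Rps3a1* (-0.055), *Eif4a2* (-0.019) and *Mxi1* (-0.005), since other clusters of these genes enter the value. Of the same 354 genes, 286 passed the test without each array in turn and 68 did not without at least 1. Of 2392 counts over lists and alternatives 2129 were within 1.5 times of the value first given. Dim genes limit the rest: 9454 genes had both means under the level of 4.85.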
